A study of Mus musculus with 2 samples.

Results

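Clustered histone genes are the genes of the replication-dependent histones, which lie together in a few chromosomal clusters. They were examined in 2 cultures of mouse GMDC, the submitters' name for dendritic cells derived from bone marrow. One received medium conditioned by topotecan-treated E0771 cells, a mouse mammary tumour line, and the other was labelled control. Topotecan inhibits topoisomerase I. RNA of each culture was measured on 1 array, so no value has a replicate error, no test was possible, and the words higher and lower compare 2 arrays. The labels give no strain, sex, age, culture time, dose or control medium, so what topotecan did to the tumour cells and what their medium does without it cannot be told apart.

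Members were the genes whose symbol in the array's annotation starts with H1f, H2ac, H2bc, H3c or H4c and whose RefSeq synonyms hold the former name, Hist1h, Hist2h, Hist3h or Hist4h. The annotation listed 63 such genes, and 26 of them had a probe set of their own among the 22180 genes with such a probe set. These 26 genes (27 probe sets) were 5 H1, 6 H2A, 8 H2B and 7 H4 genes. The other 37 genes, including all 12 H3 genes, were measured only by probe sets shared between genes. The shared probe sets numbered 37, of which 34 held distinct values, since 3 repeated both values of another probe set of the same genes. Symbols starting with H1f also belong to H1f7, H1f8 and H1f10, which never carried a Hist name and are given below with the replacement histones.

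A nucleosome wraps DNA around a core of the histones H2A, H2B, H3 and H4, and the linker histone H1 binds where the DNA enters and leaves. The clustered genes are transcribed mainly in S phase, when new DNA needs packing. Their main mRNAs end in a stem-loop in place of a poly(A) tail, which the stem-loop binding protein SLBP recognises, and are degraded when replication stops. The primer used to label the RNA is not given in the sources used here, and its part in the levels of mRNAs without a poly(A) tail was not tested.

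Promoters are shown for the genes with the most signal. The 250 bases before the start of 6 genes are printed, from RefSeq on GRCm38.p6, read 5′ to 3′ on the strand of the gene. H2ac10, H4c9, H1f2 and H2bc3 are the highest members with a probe set of their own, H2ac18 is one of 3 H2A genes that share the highest probe set with conditioned medium, and H2bc8 is one of 3 H2B genes that share the highest probe set of the control. Capitals mark the octamer ATTTGCAT, CCAAT and TATAAA on either strand, so that a match on the opposite strand to CCAAT reads ATTGG.
H2ac10 (chr13:23533625-23533874, plus strand): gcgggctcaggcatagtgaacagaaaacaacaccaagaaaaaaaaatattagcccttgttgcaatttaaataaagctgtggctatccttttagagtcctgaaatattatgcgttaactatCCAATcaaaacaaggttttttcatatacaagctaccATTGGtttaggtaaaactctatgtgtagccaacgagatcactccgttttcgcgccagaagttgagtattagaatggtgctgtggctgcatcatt
H4c9 (chr13:22041363-22041612, minus strand): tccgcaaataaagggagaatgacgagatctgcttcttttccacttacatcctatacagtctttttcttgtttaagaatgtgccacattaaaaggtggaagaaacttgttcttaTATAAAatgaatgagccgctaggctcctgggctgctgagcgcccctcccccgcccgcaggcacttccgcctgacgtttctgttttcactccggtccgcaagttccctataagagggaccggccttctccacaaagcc
H1f2 (chr13:23738557-23738806, plus strand): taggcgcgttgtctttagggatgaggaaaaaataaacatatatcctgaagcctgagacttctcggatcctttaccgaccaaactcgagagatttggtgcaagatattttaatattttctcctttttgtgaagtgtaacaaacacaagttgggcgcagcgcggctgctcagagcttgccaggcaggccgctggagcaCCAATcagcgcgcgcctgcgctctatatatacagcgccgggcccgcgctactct
H2bc3 (chr13:23746484-23746733, plus strand): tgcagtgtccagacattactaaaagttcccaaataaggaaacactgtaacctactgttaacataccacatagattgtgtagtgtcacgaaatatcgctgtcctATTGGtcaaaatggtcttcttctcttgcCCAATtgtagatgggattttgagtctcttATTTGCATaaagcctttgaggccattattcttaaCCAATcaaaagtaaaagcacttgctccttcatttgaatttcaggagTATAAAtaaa
H2ac18 (chr3:96245247-96245496, plus strand): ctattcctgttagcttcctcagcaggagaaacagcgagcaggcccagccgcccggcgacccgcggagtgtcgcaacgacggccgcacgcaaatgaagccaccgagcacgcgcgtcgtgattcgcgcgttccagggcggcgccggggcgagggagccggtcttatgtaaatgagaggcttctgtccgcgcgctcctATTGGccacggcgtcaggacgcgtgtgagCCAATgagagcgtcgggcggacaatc
H2bc8 (chr13:23571150-23571399, plus strand): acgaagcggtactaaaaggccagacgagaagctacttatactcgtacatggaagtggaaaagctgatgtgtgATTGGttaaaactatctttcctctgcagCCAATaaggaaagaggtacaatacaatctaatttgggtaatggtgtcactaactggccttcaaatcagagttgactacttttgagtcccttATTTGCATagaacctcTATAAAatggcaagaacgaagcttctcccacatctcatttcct

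Among 58 clustered histone genes with such a window, 13 (22.4%) held the octamer, against 1.60% of 32851 windows of all genes. For each motif, histone genes were counted per gene and the share over all genes was taken per window. The octamer, a site of POU factors known from H2B promoters, was in 7 of 14 H2B windows and 6 of 17 H2A windows, and in 0 of the 6 H1, 10 H3 and 11 H4 windows. CCAAT was in 48 of the 58 windows (82.8%, against 33.8% of all windows) but in 3 of the 11 H4 windows. TATAAA was in 28 (48.3%, against 12.4%). In 9 cases the windows of an H2A and an H2B gene overlapped on opposite strands, so both genes share these bases and their matches. H2bc8, printed above, forms such a pair with H2ac8. A match is a description of letters and not of binding.

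Most of the 26 genes had low signal, and their median difference between the cultures was close to that of all genes. Their log2 intensity ran from 0.92 to 7.76 with conditioned medium (median 3.04) and from 1.15 to 7.57 in the control (median 3.01). The median of all probe sets of both arrays was 4.10, a level under which signal may be background, and 19 of the 26 genes lay under it on both arrays. The median log2 difference, conditioned medium minus control, was -0.05, next to -0.04 over all 22180 genes. Of the 26 genes, 11 were higher, 13 were lower and 2 had equal values. At least 2-fold higher were 2 genes, H2bc9 and H4c14, where 5.79% of all genes were. At least 2-fold lower were 4 genes, H2bc12, H2bc18, H4c9 and H1f5, where 4.94% of all genes were.

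Of these 6 genes only H4c9 lay above 4.10 on both arrays. When values under 4.10 were raised to it, H4c9 alone stayed past 2-fold (3.66% of all genes were then at least 2-fold lower and 4.84% at least 2-fold higher). Among the 21 members with a mean under that level, 2 were at least 2-fold higher and 3 lower, where 1.82% and 2.46% of all genes with such a mean were. Among the 5 with a higher mean, 0 were at least 2-fold higher and 1 lower, where 8.72% and 6.77% of all genes with such a mean were.

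**Figure D1:**
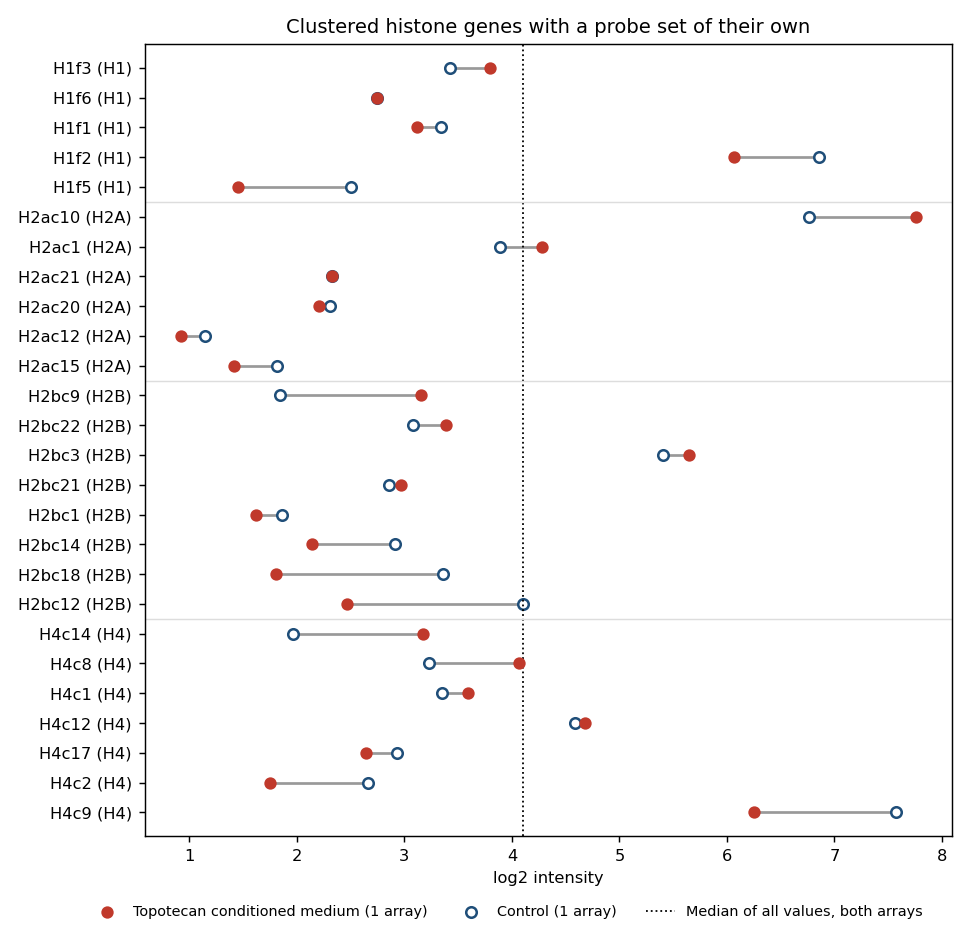
Log2 intensity of the 26 clustered histone genes with a probe set of their own, by class, with 1 array per condition (filled, topotecan conditioned medium; open, control). The dotted line is the median over all probe sets, 4.10; only H1f2, H2ac10, H2bc3, H4c12 and H4c9 lie right of it on both arrays.

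The linker histone genes were led by H1f2, one of the main H1 variants of dividing cells. H1f2 had a log2 intensity of 6.07 with conditioned medium and 6.86 in the control, a 1.73-fold lower value. It was the only one of the 5 H1 members above 4.10 on either array. H1f5 was at 1.45 with conditioned medium and 2.50 in the control, a 2.07-fold lower value. H1f3 differed by 0.37 (3.79 and 3.42) and H1f1 by -0.22 (3.12 and 3.34). H1f6, which encodes the H1 of the testis, held 2.74 on both arrays. Exactly equal values also occurred in 4.16% of all probe sets.

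Among H2A genes, which encode a core histone that pairs with H2B, H2ac10 was the highest of all 26 members with conditioned medium. H2ac10 was at 7.76 with conditioned medium and 6.77 in the control, which is 1.99-fold higher, just short of 2-fold. H2ac1, which encodes an H2A of the testis, was at 4.28 with conditioned medium and 3.89 in the control, the only other H2A gene to reach 4.10 on an array. The 4 others, H2ac20, H2ac12, H2ac15 and H2ac21, stayed between 0.92 and 2.32 with conditioned medium and differed by between -0.40 and 0. H2ac21 had another probe set, which differed by -0.09 against 0 for its first.

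No H2B gene with a probe set of its own was both past 2-fold and above 4.10 on both arrays. H2bc3 was the highest, at 5.64 with conditioned medium and 5.41 in the control, a difference of 0.24. H2bc12 was at 2.46 with conditioned medium and 4.10 in the control, 3.11-fold lower. H2bc18 was at 1.81 with conditioned medium and 3.35 in the control, 2.92-fold lower. H2bc9 differed the other way, with 3.15 with conditioned medium and 1.84 in the control, 2.47-fold higher. The low end of these pairs may be background, and the sizes are uncertain. H2bc22 (0.31), H2bc21 (0.11), H2bc1 (-0.25), which encodes an H2B of the testis, and H2bc14 (-0.77) had smaller log2 differences.

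All H4 genes of the clusters encode the same protein, yet their probe sets did not differ in one direction. H4c9 was the highest, at 6.25 with conditioned medium and 7.57 in the control, 2.49-fold lower. Its log2 difference of -1.32 lay at percentile 2.39 of all genes. H4c12 was nearly level, at 4.68 with conditioned medium and 4.58 in the control. H4c14 was at 3.17 with conditioned medium and 1.97 in the control, 2.30-fold higher. H4c8 (4.07 and 3.23), H4c1 (3.59 and 3.35), H4c17 (2.64 and 2.93) and H4c2 (1.75 and 2.66, conditioned medium first in each) lay under 4.10 on both arrays.

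By position in RefSeq, 21 of the 26 genes lie on chromosome 13 and 5, H2ac20, H2ac21, H2bc18, H2bc21 and H4c14, on chromosome 3. The 21 had a median log2 difference of -0.22, with 9 above 0 and 11 below. The 5 had a median of 0 and all lay under 4.10. Both genes of an H2A and H2B pair with overlapping promoter windows had probe sets of their own in 2 cases. H2ac12 and H2bc12 differed by -0.22 and -1.64, and H2ac1 and H2bc1 by 0.39 and -0.25.

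The shared probe sets held the highest histone signal. Over the 34 with distinct values the median log2 difference was -0.14 (-0.04 over all 1814 probe sets with several symbols). At least 2-fold higher were 2 of them (5.51% of all probe sets with several symbols) and at least 2-fold lower 2 (4.52%). Both arrays lay at or above 4.10 in 13 of the 34. A shared probe set cannot be assigned to 1 gene, and probe sets of the same genes are not independent of each other.

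The 1 distinct shared H2A probe set of chromosome 3 genes was higher, and the 8 of chromosome 13 genes were lower. The probe set of H2ac18, H2ac19 and H2ac20, on chromosome 3, was at 10.45 with conditioned medium and 9.14 in the control, which is 2.48-fold higher. Its signal lay at percentile 97.1 of all probe sets, and a repeat of it held the same values. The own probe set of H2ac20 was at 2.21 with conditioned medium and 2.31 in the control.

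The H2A genes of chromosome 13 lay the other way on their shared probe sets. All 8 probe sets with distinct values for these genes were below 0, with log2 differences between -3.19 and -0.06 and a median of -0.61. Over all 1814 probe sets with several symbols, 941 were below 0. The 8 are listed for largely the same genes, so they are not independent readings. Of the 8, 2 lay at or above 4.10 on both arrays, 1 on only 1 array and 5 on neither. The 12-gene probe set, which covers H2ac4, H2ac6, H2ac7, H2ac8, H2ac10, H2ac11, H2ac12, H2ac13, H2ac15, H2ac22, H2ac23 and H2ac24, was at 7.52 with conditioned medium and 8.18 in the control, 1.58-fold lower. The brightest of 7 probe sets of 10 of these genes (all but H2ac10 and H2ac15) was at 6.04 with conditioned medium and 6.86 in the control, 1.77-fold lower. On their own probe sets, H2ac10 and H2ac1 of chromosome 13 were higher and H2ac12 and H2ac15 lower. The largest difference, at 1.39 with conditioned medium and 4.58 in the control, was 9.14-fold as deposited and became -0.48 on the log2 scale when the low value was raised to 4.10. Another was at 2.29 with conditioned medium and 3.71 in the control, 2.67-fold lower but under that level on both arrays.

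Of the shared H2B probe sets, 6 of 7 lay above 4.10 on both arrays, and 0 passed 2-fold. Among all probe sets with several symbols, 5.51% were higher and 4.52% lower by that size. With so few probe sets, a count of 0 is near these shares. The highest H2B probe set, of H2bc4, H2bc6 and H2bc8, was at 10.12 with conditioned medium and 10.34 in the control. This is a difference of -0.22, at percentile 97.9 of all levels. The probe set of H2bc7, H2bc11, H2bc13 and H2bc15 with the most signal was at 7.98 with conditioned medium and 8.22 in the control. Both H2B probe sets of 12 genes, brighter than 4.10 on both arrays, differed by -0.15 and -0.20. They add H2bc9, H2bc12, H2bc14, H2bc23 and the gene listed as H4bc24 to the other genes named here. Of the 7 distinct H2B probe sets, 5 were lower, 1 was higher and 1 equal, between -0.54 and 0.43. H1f4, a main linker histone gene, was read only together with H2bc4, H2bc6 and H2bc8, at 3.91 with conditioned medium and 4.04 in the control.

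H3 genes, which encode the core histone that pairs with H4, were read from 12 shared probe sets. Of these 0 passed 2-fold, where 5.51% of all probe sets with several symbols were higher and 4.52% lower by that size. With so few probe sets, a count of 0 is near these shares. In the set of H3c2, H3c3, H3c4, H3c6, H3c7, H3c13, H3c14 and H3c15, the 3 probe sets above 4.10 on both arrays were all higher. One was at 6.02 with conditioned medium and 5.62 in the control, and another at 5.87 with conditioned medium and 5.21 in the control. The third, at 5.58 with conditioned medium, differed by 0.58. The 5 others of that set lay under 4.10 on both arrays and differed by between -0.83 and 0.17. The genes H3c1, H3c8, H3c10 and H3c11, which encode H3.1, had 1 probe set above 4.10, at 4.22 with conditioned medium and 4.16 in the control. The 5 shared H4 probe sets all lay under 4.10, and 1 of them was 3.22-fold higher (2.84 with conditioned medium and 1.16 in the control).

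**Figure D2:**
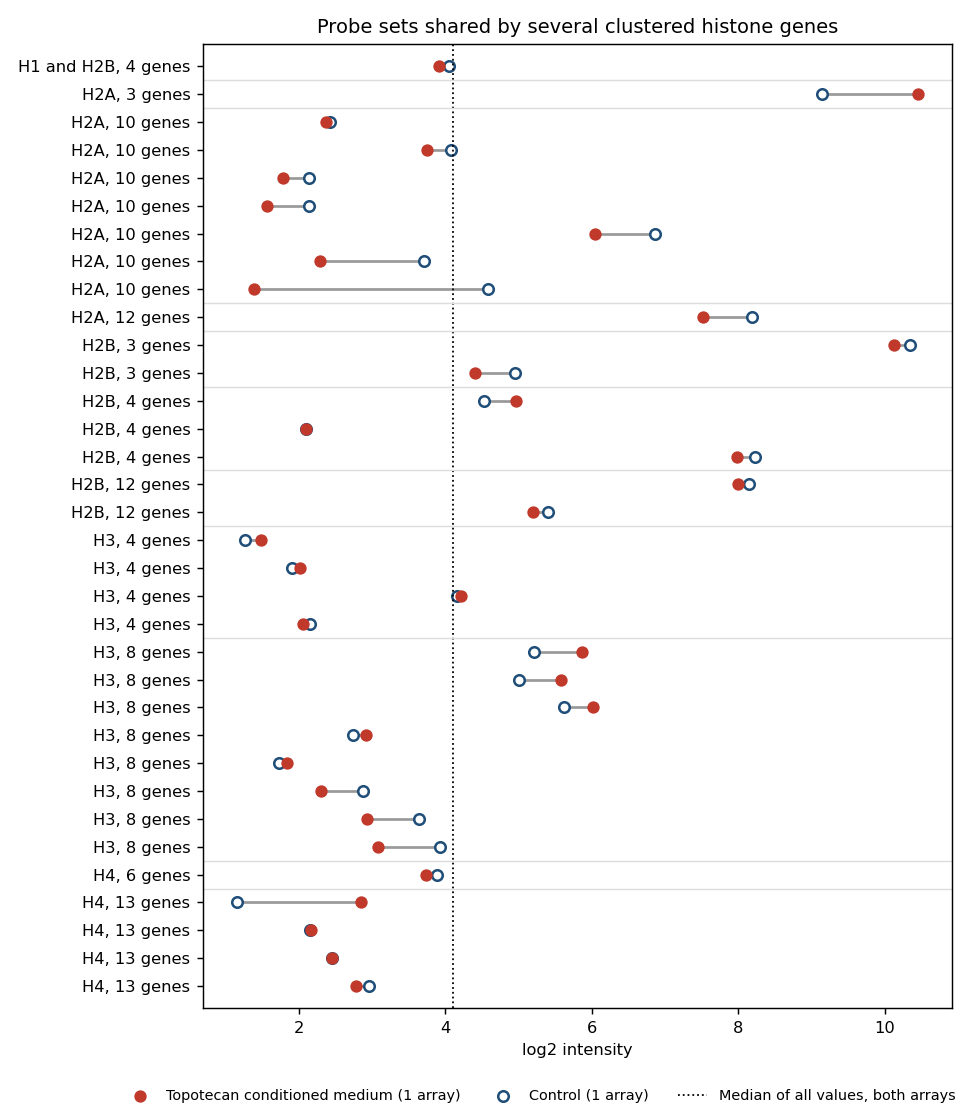
Log2 intensity of the 34 distinct probe sets shared by several clustered histone genes, labelled by class and number of genes (filled, topotecan conditioned medium; open, control; 1 array each). The 8 H2A probe sets of 10 or 12 genes all have the filled point left of the open one, and the H2A probe set of 3 genes has it right, at 10.45 against 9.14.

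A further 4 genes once named Hist now carry symbols outside the letters used to choose members, and they were taken up after their values were seen. H2aw, formerly Hist3h2a, an H2A gene of the small cluster on chromosome 11, was at 8.90 with conditioned medium and 5.92 in the control. This is 7.86-fold higher, at percentile 99.3 of the differences of all genes, and larger than that of any of the 26 members. H4f16, formerly Hist4h4, was at 3.73 with conditioned medium and 4.20 in the control. The pseudogenes H2bu1-ps (2.12 and 1.58) and H2af-ps2 (2.16 and 2.02, conditioned medium first) lay low on both arrays.

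**Figure D3:**
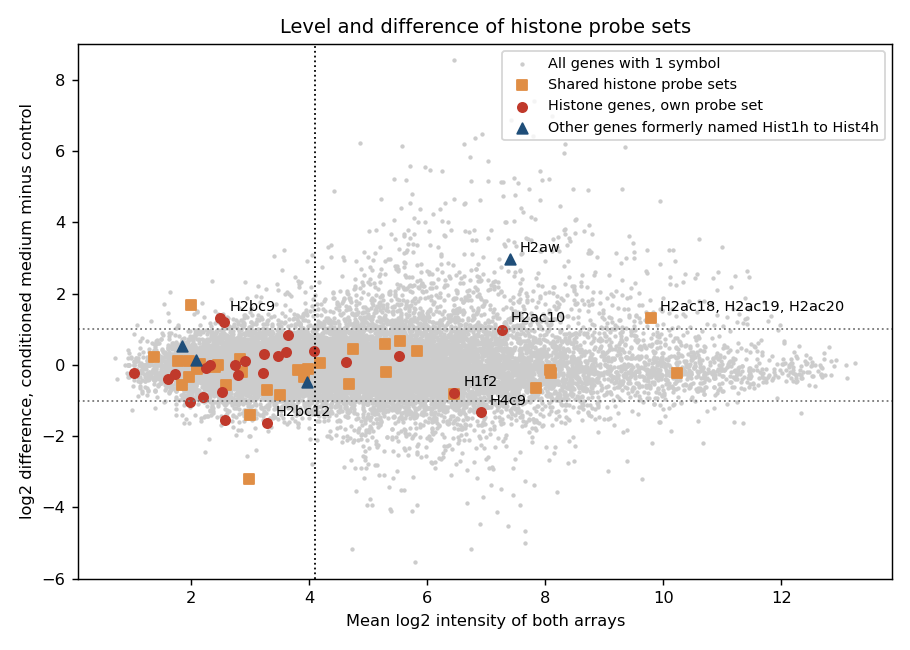
Mean log2 intensity of both arrays (x) against the log2 difference, conditioned medium minus control (y), for all genes with 1 symbol (grey), the 26 members (circles), shared histone probe sets (squares) and the 4 other genes formerly named Hist (triangles). Horizontal dotted lines mark 2-fold and the vertical one the level of 4.10; H2aw, at 2.97, is the histone gene farthest above 0.

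Most replacement histones enter chromatin outside replication and have polyadenylated mRNAs. Their median log2 difference was -0.16 over 11 measured of 14 listed genes. At least 2-fold lower were 2 of them, where 4.94% of all genes were. A mean at or above 4.10 was found for 8 of the 11. At that level 6.77% of all genes were lower and 8.72% higher by that size. H2az2, an H2A.Z gene, was at 7.34 with conditioned medium and 9.48 in the control (4.42-fold), and Cenpa, the centromeric H3, at 7.03 with conditioned medium and 8.56 in the control (2.87-fold). The macroH2A gene Macroh2a2 was the 1 gene at least 2-fold higher (5.79% of all genes), at 5.87 with conditioned medium and 4.39 in the control (2.79-fold). The other H2A.Z gene, H2az1, was nearly level at 7.35 with conditioned medium and 7.38 in the control. H1f10, a linker histone gene, was at 3.68 with conditioned medium and 4.65 in the control, H1f7 differed by 0.63 and Hils1 by 0.11, while H1f8 was equal on both arrays.

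The genes that switch on histone transcription in S phase were mixed. Of 12 measured, 1 passed 2-fold in each direction (5.79% of all genes higher and 4.94% lower), and their median was -0.14. All 12 had a mean at or above 4.10, where 8.72% of all genes were higher and 6.77% lower by that size. Ccna2, the cyclin A2 gene of S phase and later, was at 5.20 with conditioned medium and 8.16 in the control (7.79-fold lower), and Ccne1, a cyclin E gene, at 7.03 with conditioned medium and 5.77 in the control (2.40-fold higher). Npat, the coactivator of the histone clusters that cyclin E and CDK2 phosphorylate, was at 6.04 with conditioned medium and 5.59 in the control. E2f1 differed by -0.83, Nfyc, a subunit of the CCAAT-binding factor, by -0.57 and Gon4l by 0.10.

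Among genes of histone mRNA processing and decay, the median of 23 measured was -0.24. At least 2-fold lower were 2 (4.94% of all genes) and higher by that size 1 (5.79% of all genes). Of the 23, 21 had a mean at or above 4.10. At that level 6.77% of all genes were lower and 8.72% higher by that size. Slbp was at 6.33 with conditioned medium and 6.53 in the control. Tut7, a terminal uridylyltransferase, was at 7.08 with conditioned medium and 5.80 in the control (2.43-fold higher), ahead of Lsm1 (0.39) and Tut4 (0.35). The lowest were Srrt (-1.08), which acts with the cap-binding complex, Eri1 (-1.02), an exonuclease that trims the histone stem-loop, and Cpsf3 (-0.91), the endonuclease that cuts histone pre-mRNA.

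Histone chaperones, which carry new histones to DNA, had a median of -0.40 over 22 measured genes. Of these, 3 were at least 2-fold lower (4.94% of all genes) and 1 higher (5.79% of all genes). The mean lay at or above 4.10 in 21 of the 22. At that level 6.77% of all genes were lower and 8.72% higher by that size. Below 0 were 17 of the 22, where 11603 of all 22180 genes were. Asf1b, a chaperone of H3 and H4 in dividing cells, was at 4.71 with conditioned medium and 7.42 in the control (6.55-fold lower). Anp32e, which removes H2A.Z (-1.50), and Nasp, which keeps a reserve of H3 and H4 (-1.37), followed. Daxx, a chaperone of H3.3, was at 9.01 with conditioned medium and 6.99 in the control (4.04-fold higher), ahead of Spty2d1 (0.96) and Supt16 (0.70).

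The genes of S phase itself, the time when clustered histone genes are expressed, had a median log2 difference of -0.83 over 35 measured. At least 2-fold lower were 14 of them (4.94% of all genes were) and 1 was at least 2-fold higher (5.79% of all genes). Signal differed between the lists: 33 of the 35 S-phase genes had a mean at or above 4.10, against 5 of the 26 histone genes. At that level 6.77% of all genes and 1 of the 5 histone genes were at least 2-fold lower. The difference between the lists was not tested. Cdc45 (-2.11) and Mcm5 (-2.03), parts of the replicative helicase, and Prim1 (-2.06), a primase subunit, were lowest. Rfc3 (1.32), a clamp loader subunit, Gins1 (0.93) and Gins3 (0.33) were highest.

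**Figure D4:**
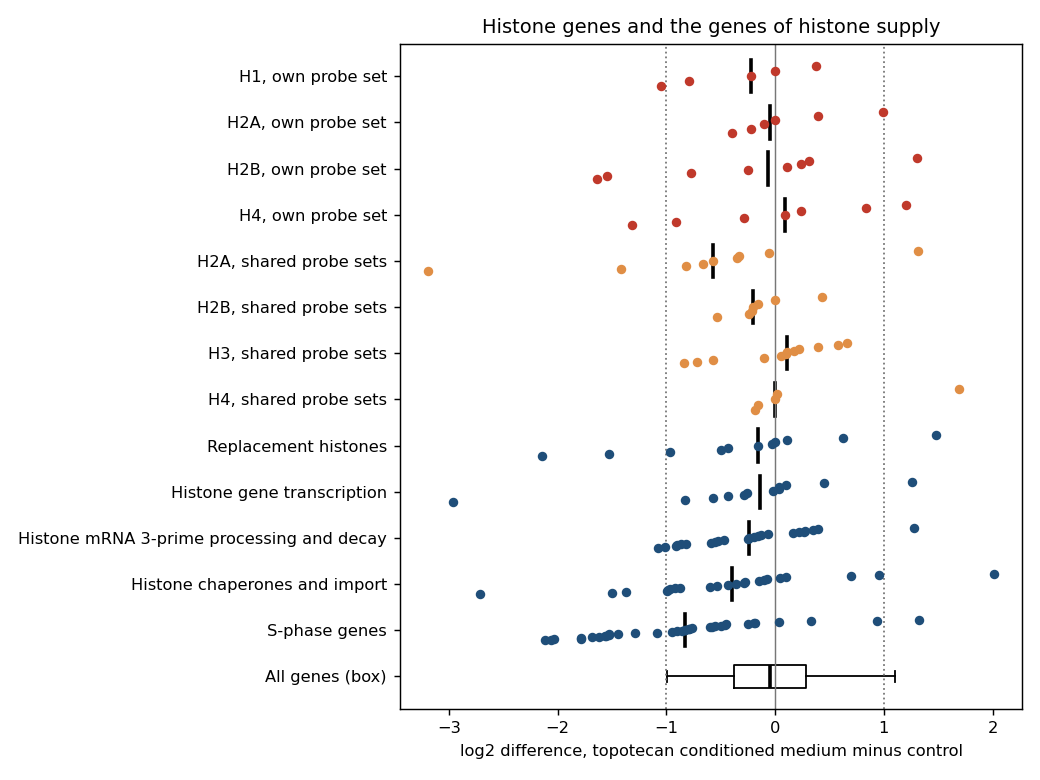
Log2 difference, topotecan conditioned medium minus control, for each gene or distinct shared probe set, by group, with the median as a black bar and dotted lines at 2-fold. The box shows all 22180 genes (quartiles, whiskers at the 5th and 95th percentiles); the S-phase median is -0.83 and those of the histone classes with their own probe sets lie between -0.22 and 0.09.

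Cell type markers differed between the arrays as well, and their part in the histone values was not tested. The share past 2-fold over all genes was 5.79% on the higher and 4.94% on the lower side, and among those with a mean at or above 4.10, 8.72% and 6.77%. Of 15 neutrophil markers, 9 were at least 2-fold lower and 0 higher. Their levels ran from 3.03 to 10.53 with conditioned medium and from 5.47 to 12.16 in the control. Below 0 were 11 of the 15, and above 0 were 4, Csf3r (0.89), Cebpe (0.80), Ly6g (0.74) and Lcn2 (0.10). Of 14 measured dendritic cell markers 5 were at least 2-fold higher and 4 lower (3.15 to 11.31 with conditioned medium, 3.65 to 10.16 in the control). By log2 difference, the 5 higher were H2-Aa (1.88), Irf4 (1.83), Csf2rb (1.49), H2-Eb1 (1.36) and H2-Ab1 (1.14). The 4 lower were Batf3 (-2.03), Clec10a (-2.01), Flt3 (-1.23) and Itgax (-1.03). Itgax was at 7.15 with conditioned medium and 8.18 in the control, and Flt3 at 3.15 with conditioned medium and 4.38 in the control. Zbtb46, which defines conventional dendritic cells, lay under 4.10 on both arrays. Of 11 macrophage markers 3 were at least 2-fold lower and 0 higher (5.60 to 12.53 with conditioned medium, 5.66 to 12.71 in the control). The 3 lower were Csf1r (-2.93), Mrc1 (-2.74) and Adgre1 (-2.29), and 3 of the 11 lay above 0. Of 9 lymphocyte markers 1, Cd79b (-2.24), was at least 2-fold lower and 0 higher (3.05 to 5.25 and 3.32 to 7.49), and 5 lay above 0. Tumour epithelial and stromal markers had 3 of 14 higher by that size and 0 lower (2.63 to 10.88 and 2.67 to 11.51), and erythroid markers 1 of 5 and 0 (3.46 to 9.32 and 3.70 to 5.31, conditioned medium before control in each). The 3 were Dcn (4.01), Cdh1 (3.79) and Krt19 (2.15), while 9 of the 14 lay below 0. The erythroid marker was Car2 (4.01), while 2 of the 5 lay below 0. No marker was listed at 0. In such bulk samples fewer cells of a type and less RNA per cell cannot be told apart.

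The size of technical differences could be read only between probe sets on these arrays. Log2 differences of probe sets for the same gene had a pooled SD of 0.44 (713 degrees of freedom, genes with several probe sets whose mean lay at or above 4.10). Among shared histone probe sets of the same genes it was 0.73 (23 degrees of freedom) over all and 0.25 (5 degrees of freedom) over those with a mean at or above 4.10. These figures cover neither culture nor array. The differences of H4c9, H2ac10, H2aw and the H2ac18, H2ac19 and H2ac20 probe set were over 2 times 0.44 in size. Those of H1f2 (-0.79), the brightest chromosome 13 H2A probe sets (-0.66 and -0.82) and 2 of the 3 brightest H3 probe sets (0.58 and 0.67) exceeded 0.44 by less than that. That of the third H3 probe set (0.40) and those of H2bc3, H4c12 and the brightest H2B probe sets did not reach it.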

How the data were processed

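Total RNA (6 ug per labelling) of 2 cultures, topotecan conditioned medium and control, was labelled as biotinylated cRNA and measured on 1 array each, as the labels' protocols describe. Affymetrix Expression Console made the values, per the submitters' processing notes; no version, algorithm, background correction or build is given in the sources used here. Per probe set and array the authors deposited 1 value, taken as log2 intensity from the range (0.02 to 13.50 with conditioned medium, -0.26 to 13.42 in the control, medians 4.09 and 4.10), so the log base is inferred. Nearly equal distributions would hide a shift of most genes.

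Of 41345 probe sets, 23521 had 1 symbol in the platform annotation, 1814 several and 16010 none. A gene took its probe set with the highest mean of both arrays. No filter on level was used. A fold is 2 raised to the log2 difference, conditioned medium minus control, and genes were counted at 2-fold. Named genes were, per histone class, the 3 highest and 3 lowest differences and the 2 highest levels (every member of classes up to 6 genes), and per pathway list the 3 highest and 3 lowest; others were chosen after their values were seen. Members and lists were chosen with earlier results of these data known. Promoter letters and former names came from RefSeq (GRCm38.p6). Gene choice and counting were tested on simulated arrays with known shifts in genes with 1 symbol. The noise in that simulation was set and not taken from these arrays, and shared probe sets were not covered. The number of arrays limits the precision. Python 3.11.15, numpy 2.4.6, pandas 2.3.3, statsmodels 0.14.6 and matplotlib 3.10.9 were used.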

Additional observations from a re-analysis of the deposited data

How the results depend on the processing

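With 1 array per condition, these values show how far the choices move the description and not its error. No paired analysis was possible because each condition has 1 array. Quantile normalization, a lowess curve and centring moved the median of all genes by -0.003, 0.04 and 0.01 and changed the sign of no member or shared histone probe set. The median over all 26 genes lay between -0.07 and 0; it was 0.09 over the 5 or 7 genes that passed a filter on level and -0.12 over the 60 genes and shared probe sets together. The median of the shared probe sets lay between -0.18 and 0 and that of the S-phase genes between -0.85 and -0.48, filters on level included. For single members, 140 of 156 values moved by less than 0.44, the SD between probe sets of a gene. The other 16, those of 8 genes whose low values were raised, moved by more, towards 0. Smaller differences of low genes such as H2ac15 (-0.40) and H1f3 (0.37) also became 0 when low values were raised. Counting H1f7, H1f8 and H1f10 in left 2 higher and 4 lower; counting H2aw and the 3 others in, chosen after seeing the data, gave 3 higher and 4 lower. Using the mean of a gene's probe sets or each probe set alone left 2 and 4. H3 has no value because 0 of its genes have a probe set of their own, and averaging over probe sets has no meaning for the shared ones.

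Counts past the threshold (as reported, 2 higher and 4 lower for the 26 genes) depended on low signal and on its size. Raising low values to the median or to the 75th percentile gave 0 higher and 1 lower of the 26 genes. Under both, H1 had 0 lower, H2B 0 higher and 0 lower and H4 0 higher, and the shared probe sets had 1 higher and 0 lower. The 75th percentile also gave 0 higher replacement histones, 1 lower processing gene and 8 lower S-phase genes. Keeping only means at or above 4.10 left 5 genes, 0 higher and 1 lower. Class medians were then -0.79 (H1), 0.99 (H2A) and -0.61 (H4), with 0 lower for H1, 0 higher and 0 lower for H2B and 0 higher for H4; 13 shared probe sets were left, 1 higher and 0 lower. Keeping genes whose higher value reached 4.10 left 7, with 0 higher and 2 lower. This filter can let a gene in because it differs: H2bc12 passed only through the control and H2ac1 only through conditioned medium. Its counts and medians, those of the shared probe sets included, therefore partly follow from the rule. Class medians were -0.79 (H1), 0.69 (H2A), -0.70 (H2B) and -0.61 (H4), with 0 lower for H1, 0 higher and 1 lower for H2B and 0 higher for H4; 14 shared probe sets were left, 1 higher and 1 lower. After the lowess curve 1 H2A gene (H2ac10) and 2 S-phase genes were higher and 0 processing genes lower.

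At 1.5-fold, 4 of the 26 genes were higher and 7 lower, with 2 lower for H1, 1 higher for H2A and 2 higher and 2 lower for H4; 6 shared probe sets were lower. At that size 2 replacement histones were higher, 2 transcription genes lower, 7 processing genes lower, 3 chaperones higher and 9 lower, and 2 S-phase genes higher and 23 lower. At 3-fold, 0 were higher and 1 lower of the 26, with 0 lower for H1, 0 higher and 1 lower for H2B and 0 and 0 for H4; the shared probe sets had 1 higher and 1 lower. Replacement histones had 0 higher and 1 lower, transcription genes 0 higher, processing genes 0 and 0, chaperones 1 lower and S-phase genes 0 higher and 7 lower. The shares of all genes past 1.5-fold and 3-fold are not given here, so the counts at these sizes cannot be read against them. At 2-fold, counting shared probe sets beside the genes gave 4 higher and 6 lower of 60. The cause of these changes was not tested beyond the rule each alternative sets.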
